A study of Drosophila melanogaster with 2 samples.

Results

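The genes described here are 50 Drosophila genes listed as homeobox genes outside the Hox clusters, chosen by name from the ANTP, Pax, TALE, paired-like, LIM, POU, Sine oculis and zinc finger classes plus dve. They were set against a map of where CG10959, a protein tagged with eGFP, was crosslinked to DNA. All 50 symbols matched protein-coding genes of the Ensembl annotation, out of 13945 such genes on chromosomes 2, 3, 4 and X. The chromatin came from whole embryos aged 0 to 8 h of the transgenic strain CG10959-GFP, which carries an insertion targeting CG10959, and was immunoprecipitated with an antibody against GFP. The 2 libraries are biological replicates 1 and 2 of 1 group, and no other genotype, stage or treatment was compared. A peak of the pooled IDR thresholded list (IDR is the irreproducible discovery rate, a measure of how steadily a peak ranks between sets of reads) counted for a gene when its summit lay in the gene or within 10 kb of it. This main list held 3434 peaks, 3417 of them on those chromosomes. Each replicate's own thresholded list held 2043 peaks (replicate 1) and 2328 peaks (replicate 2) there. The depth of the libraries is unknown, since no read numbers were used. The signal of a peak is the authors' own value of its strength over the control, on a scale that is not stated, and it was compared only within a list.

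Homeobox genes encode transcription factors that bind DNA through a homeodomain, a small helical domain whose last helix lies in the major groove. In the fly embryo they set regional and cell identity: limb and head fields, muscle and heart, eye tissue and classes of neurons. Most of them are expressed in few cells at a time, and many are known to be switched by enhancers that lie far from the promoter, in introns or in the DNA between genes. Whole embryos mix all cell types and 8 h of development, so strong binding in few cells and weak binding in many cannot be told apart. As a check of the label, the end of the recognition helix was searched for in the longest annotated coding sequence of each gene. The strict pattern (W, F or V, any residue, N, R or K) was found in 35 of 50 genes. A wider pattern (W, then F, V or Y, any residue, N, any residue, R or K), chosen after the first result was seen, was found in 48. The exceptions were Poxm and Poxn, which are known as paired-domain genes without a homeodomain. They are kept among the 50, called the homeobox genes below, and counts that turn on them are also given without them.

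CG10959 peaks lay at or near 22 of the 50 genes (44%, 95% Wilson interval 31.2 to 57.7), against 50.8% of all protein-coding genes. Only 3 of the 50 (6%, 2.06 to 16.2) had a peak at their own promoter, with the summit within 500 bp of an annotated transcription start site (TSS): Dll, Poxm and Poxn. The same was true of 11.3% of all protein-coding genes. Without Poxm and Poxn, the genes with no homeodomain, 1 of 48 was left (2.08%). With only peaks in both replicates' lists the shares of the 50 and of all genes were 6% and 6.43%, and among the strongest 500 peaks they were 4% and 2.60%. In all, 47 distinct peaks fell in the windows of the 22 genes, and no peak was shared between windows of 2 listed genes. Of the 22 genes, 10 had 1 peak and 12 had more, up to 7 at hth, and 3 of the 47 peaks overlapped a stronger one. Among all protein-coding genes 7087 had a peak, with 12261 pairs of gene and peak. How many of those had more than 1 peak is not given here, so several peaks per gene cannot be called particular to the list. No test was made over the list, because its members were chosen with results of these data known.

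The 4 strongest peaks of the homeobox genes stood away from their promoters. Some of the peaks found in both replicates are shown here with their sequence because they carry the highest signals or one of the motifs counted further on. The 101 bases centred on each summit are given 5′ to 3′ on the plus strand of the RefSeq copy of dm6, and capitals mark a match to a motif or 8-mer searched. The otp and Dll peaks, also among the strongest, are given by their values alone. In the order printed, the sequences begin with the peak beyond C15 (chr3R:21520305-21520405) and the one in an intron of zfh1 (chr3R:30781721-30781821). The next pair lay upstream of oc (chrX:8656692-8656792, whose capitals are the reverse complement of TATTTTAA) and upstream of tup (chr2L:18890239-18890339). Then comes the promoter peak of Poxm (chr3R:8334135-8334235), a gene on the minus strand. The last ones were intronic, in Lim1 (chrX:8774208-8774308, with TAATTA in capitals) and in hth (chr3R:10597747-10597847, with a reverse complement match to TGATNNAT in capitals).
C15: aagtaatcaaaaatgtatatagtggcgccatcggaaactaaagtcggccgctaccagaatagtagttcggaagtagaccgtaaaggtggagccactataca
zfh1: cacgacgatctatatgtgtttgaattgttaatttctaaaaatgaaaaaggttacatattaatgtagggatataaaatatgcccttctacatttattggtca
oc: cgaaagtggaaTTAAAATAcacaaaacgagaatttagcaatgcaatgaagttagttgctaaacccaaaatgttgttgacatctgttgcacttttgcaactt
tup: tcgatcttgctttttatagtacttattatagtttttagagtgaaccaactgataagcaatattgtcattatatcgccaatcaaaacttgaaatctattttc
Poxm: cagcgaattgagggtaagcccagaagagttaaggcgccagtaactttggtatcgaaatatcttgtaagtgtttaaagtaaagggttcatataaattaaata
Lim1: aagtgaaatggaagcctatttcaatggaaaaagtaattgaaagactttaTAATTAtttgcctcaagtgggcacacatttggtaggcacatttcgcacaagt
hth: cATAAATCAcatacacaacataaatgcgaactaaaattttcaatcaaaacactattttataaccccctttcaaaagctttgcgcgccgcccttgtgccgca

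C15, a homeobox gene of the tip of the leg, had the strongest peak of the list. It lay at 3R 21520234 to 21520477 and had a signal of 734 in the pooled list, with 296.8 in replicate 1 and 457.1 in replicate 2. The summit was 7541 bp beyond the 3′ end of the gene (3R 21499986 to 21512814) and 573 bp from a TSS of sp3, so the nearest start site was that of another gene. It ranked 69th by signal among the 3417 peaks.

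zfh1 encodes a zinc finger and homeodomain repressor of the mesoderm and heart, and its window held 5 peaks. The strongest lay in an intron at 3R 30781651 to 30781889, 1487 bp upstream of the nearest of its 2 TSSs. Its signal was 571 in the pooled list, 306.3 in replicate 1 and 259.3 in replicate 2. The other 4 had signals of 89.4 to 106.2, and none was in both replicates' lists. Of these 4, 1 was intronic, 1 lay 4584 bp upstream and 2 lay downstream inside the neighbouring gene wts. The intronic summit of the strongest peak also lay within the antisense RNA gene CR45189.

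Among the paired-like genes, otp and oc had peaks. otp, which acts in the hindgut and in neurons, had its strongest peak in a coding exon at 2R 20884472 to 20884757. That peak had a signal of 716.4 in the pooled list, 326.3 in replicate 1 and 388.3 in replicate 2, and its summit was 12991 bp downstream of the nearest of 2 otp TSSs. Of the peaks in exons of the listed genes themselves, it was the only one in both replicates' lists. The other otp peaks, with signals of 105.9 and 89.8, lay 3313 bp upstream and 7236 bp beyond the gene.

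oc (orthodenticle) patterns the embryonic head and the ventral midline. One of its peaks lay 6061 bp upstream at X 8656651 to 8656851 and had a signal of 367.9 in the pooled list, with 209.7 in replicate 1 and 161.7 in replicate 2. The other lay 2770 bp beyond the gene at X 8627302 to 8627460, with 261.3 in the pooled list, 141.7 in replicate 1 and 115.3 in replicate 2. Both flanks of oc thus held a peak found in both replicates, and none lay within the gene.

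**Figure D1:**
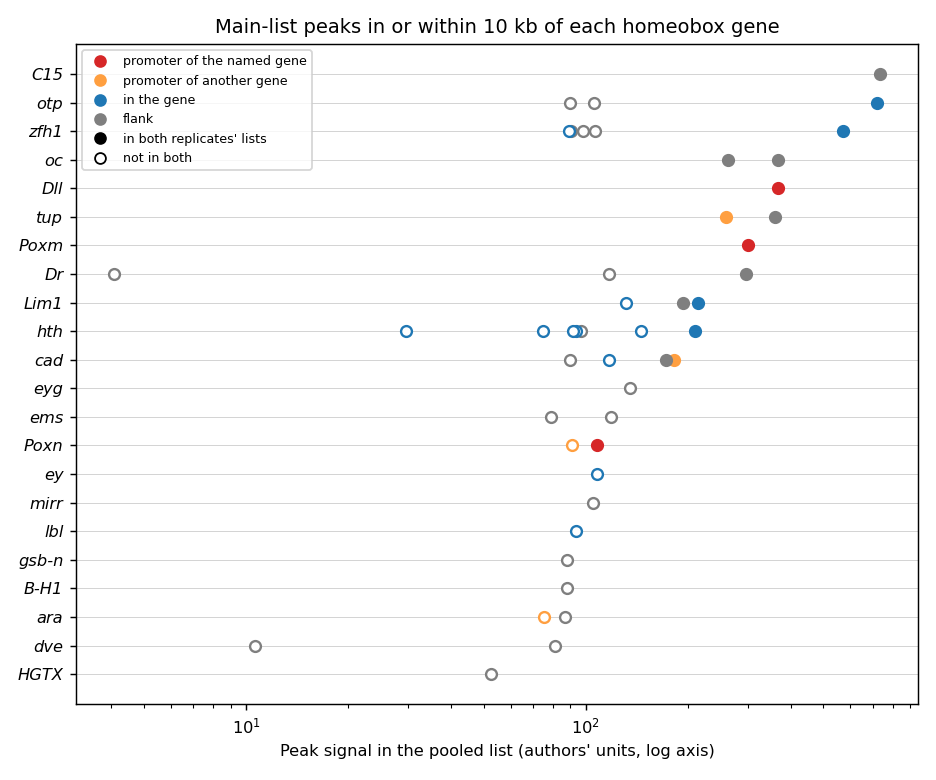
Signal of each main-list peak in the pooled list (horizontal log axis, authors' units) for the 22 homeobox genes with a peak, ordered by their strongest peak. Colours give the position of the summit, and filled points are peaks in both replicates' own lists. All peaks with a signal above 146 are filled, and the red promoter peaks belong to Dll, Poxm and Poxn.

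The promoter peaks stood at a limb gene and at a pair of Pox genes. Dll (Distal-less), needed for limb outgrowth, had its peak at 2R 24814651 to 24814831 with the summit 87 bp upstream of its TSS. The signal was 367.6 in the pooled list, 128.1 in replicate 1 and 242.9 in replicate 2. Poxm (Pox meso) is expressed in the somatic mesoderm. Its peak lay at 3R 8334005 to 8334364, 393 bp upstream of the TSS, with 300.5 in the pooled list, 206.1 in replicate 1 and 112.1 in replicate 2. The replicates thus gave the opposite order for Dll and Poxm. Poxn (Pox neuro) specifies poly-innervated sense organs, and its peak at 2R 15835251 to 15835610 lay 376 bp upstream of a Poxn TSS and inside the gene tun. Its signal was 108.1 in the pooled list, 54.4 in replicate 1 and 71.1 in replicate 2. All 3 were in both replicates' lists, but with the promoter taken as 200 bp on each side of a TSS Dll alone was left.

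Ranked peaks below the threshold were used to place the other promoters. For each gene the strongest pooled ranked peak within 500 bp of a TSS was taken, and a gene with none was listed at 0. The median over the 50 genes was 34.3, against 33.8 over all protein-coding genes, and 25 of the 50 lay above the median of all genes. The replicates disagreed on the side: in replicate 1 the medians were 13.5 for the homeobox genes and 16.9 for all genes, with 18 of 50 above, and in replicate 2 they were 26.1 and 20.1, with 31 of 50 above. Dll stood at the 98.4th percentile of all genes, Poxm at the 97.7th and Poxn at the 91.7th. No ranked promoter peak was listed for 12 of the 50 homeobox genes, nor for 3051 of the 13945 genes.

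**Figure D2:**
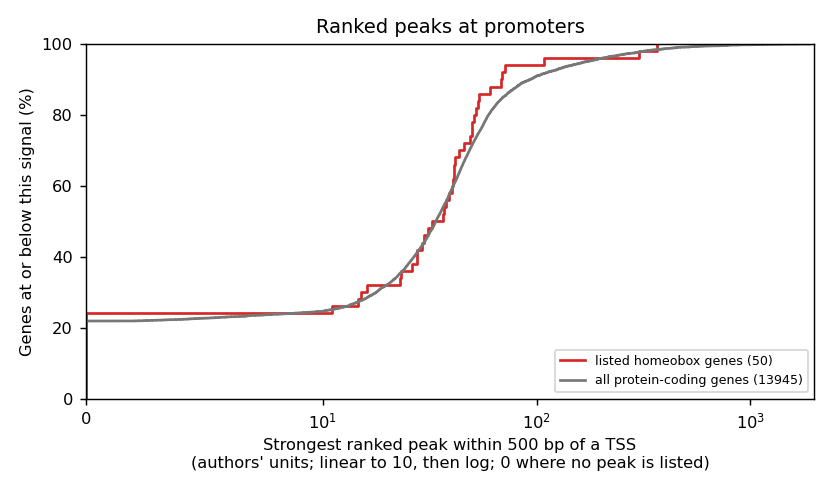
Cumulative share of genes (vertical axis, percent) by the signal of the strongest pooled ranked peak within 500 bp of a TSS (horizontal axis, authors' units, linear up to 10 and then log). The red line, for the 50 homeobox genes, and the grey line, for all 13945 protein-coding genes, cross near their medians of 34.3 and 33.8.

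LIM and ANTP class genes held most of the other peaks found in both replicates. tup (tailup), a LIM gene of the heart, the amnioserosa and motor neurons, had a peak 9028 bp upstream at 2L 18890177 to 18890380. Its signal was 360.1 in the pooled list, 196.1 in replicate 1 and 175.2 in replicate 2. A second tup peak, with 257.4 in the pooled list, 127.0 in replicate 1 and 136.3 in replicate 2, lay past the gene at 2L 18857723 to 18857834. That summit was 117 bp from a TSS of CG10602, so it was a promoter peak of a neighbour.

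Lim1, which acts in the distal leg and antenna, had 3 peaks. The stronger intronic peak, at X 8774192 to 8774303, reached 213.8 in the pooled list, 108.5 in replicate 1 and 102.9 in replicate 2. Another lay 1017 bp beyond the gene at X 8755475 to 8755610, with 192.4 in the pooled list, 96.1 in replicate 1 and 93.6 in replicate 2. A second intronic peak, with a signal of 131.3, was in the list of replicate 1 only. The other LIM genes, ap and Lim3, had none.

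Dr (also known as msh) subdivides the nervous system and muscle from dorsal to ventral. Its strongest peak, at 3R 29567095 to 29567270, lay 1950 bp beyond the gene and had a signal of 295.2 in the pooled list, 144.3 in replicate 1 and 138.3 in replicate 2. A further Dr peak had a signal of 116.8 and lay 6269 bp upstream. The third, with a signal of 4.09, overlapped that stronger peak and so adds no separate place.

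cad (caudal), which patterns the posterior of the embryo, had 4 peaks, all in the 3′ part of the gene or beyond it. The peak at 2L 20782980 to 20783339 lay 25 bp beyond the gene and had a signal of 172.0 in the pooled list, 100.3 in replicate 1 and 84.9 in replicate 2. The one at 2L 20787243 to 20787602 lay 4288 bp beyond the gene, with 182.0 in the pooled list, 90.7 in replicate 1 and 101.9 in replicate 2. Its summit was 233 bp from a TSS of Pomp, another promoter peak of a neighbour. The intronic cad peak had a signal of 116.9 and was in the list of replicate 2 only, and the last one, with 89.9, was in neither list.

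hth (homothorax) encodes the TALE cofactor that brings Exd into the nucleus, and at 132.0 kb it was the longest of the 50 genes. Its window held 7 peaks: 4 in introns, 2 in coding exons and 1 upstream, 1909 bp from the gene. The strongest, intronic at 3R 10597617 to 10597976, had a signal of 209.8 in the pooled list, 98.4 in replicate 1 and 111.7 in replicate 2. It was the only hth peak in both replicates' lists. The next, also intronic, had 145.0, with 73.4 in replicate 1 and 76.8 in replicate 2, and was in the list of replicate 2 only. The remaining 5 had signals of 29.6 to 96.9, 1 of them was in the list of replicate 1 and 4 were in neither list. The one with 29.6 overlapped the stronger peak with 74.5.

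Other members had weaker peaks, none of them in both replicates' lists. ara and mirr, of the Iroquois genes that prepattern bristles and the dorsal eye, had 2 peaks and 1 peak in their upstream flanks, with signals of 75.2 to 105.1. The ara peak with 75.2 lay 27 bp from a TSS of sowah. Pax genes of the eye were covered in part: eyg had a peak 4990 bp beyond the gene with a signal of 135.2, and ey had an intronic one with 108.0, at 4 709708 to 710067, with 54.7 in replicate 1 and 53.5 in replicate 2. The ey peak was the only main-list peak in the window of any of the 80 protein-coding genes of chromosome 4 (1.25% of them). Its summit also lay within an annotated copy of the transposable element INE-1, and the ey window held 2 pooled ranked peaks in all. ems, a head gap gene, had peaks of 118.2 beyond it and 79.0 upstream. The second Poxn peak, with 90.7, lay 331 bp from a TSS of CG33465. lbl (93.3), gsb-n (87.8), B-H1 (87.7), dve (81.1 and 10.6) and HGTX (52.7) made up the rest, and the weaker dve peak overlapped the stronger one.

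**Figure D3:**
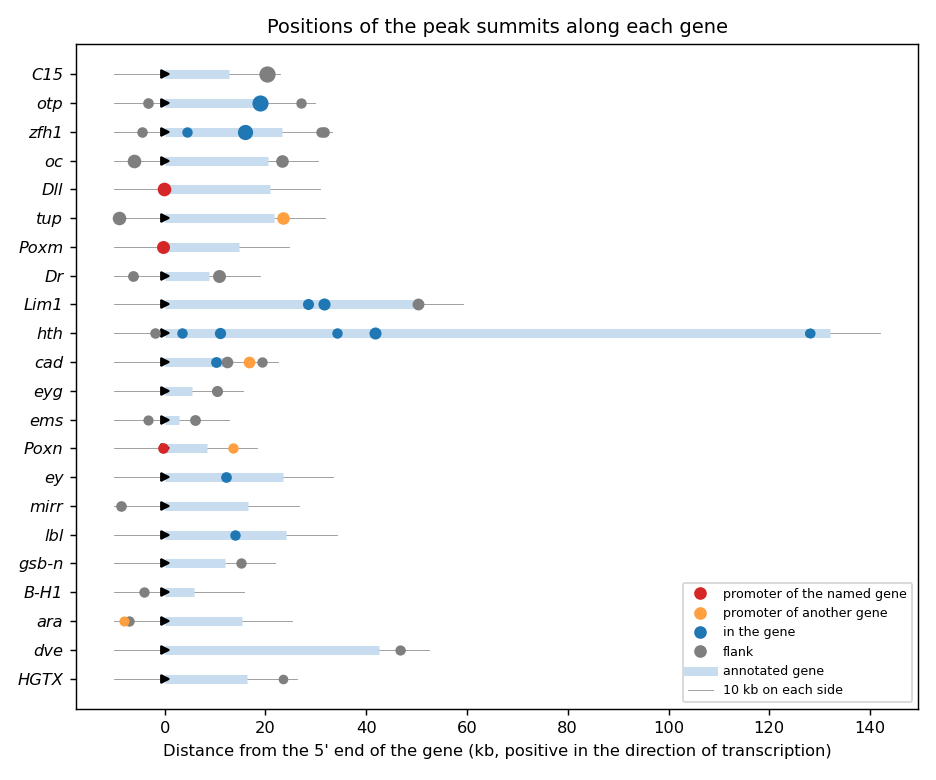
Position of every peak summit (points, larger for a higher signal) along the 22 genes with a peak, as distance in kb from the 5′ end of the gene in the direction of transcription. Blue bars are the annotated genes, grey lines the 10 kb on each side. Points lie in introns, exons and both flanks, and within 393 bp of the 5′ end for Dll, Poxm and Poxn.

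By class, peaks were present at 8 of 15 ANTP genes, 5 of 8 Pax genes, 3 of 7 TALE genes, 2 of 7 paired-like genes, 2 of 4 LIM genes, 1 of 2 zinc finger genes and dve. None of the 4 POU genes (nub, pdm2, vvl and acj6) and neither of the Sine oculis class genes (so and Optix) had one. The classes are too small to be compared. Among paralogs that neighbour each other in the list, lbl had a peak and lbe none, B-H1 had one and B-H2 none, gsb-n had one and gsb none, and eyg had one and toe none. Neither of the pair vis and achi had a peak, nor did nub or pdm2, and of the Iroquois genes caup alone had none.

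The 28 genes without a main-list peak were B-H2, ind, lbe, scro, slou, unpg, vnd, Lim3, ap, acj6, nub, pdm2, vvl, gsb, toe, toy, Optix, so, achi, vis, caup, exd, Ptx1, Rx, hbn, repo, unc-4 and zfh2. For 26 of them the pooled ranked list held at least 1 peak in the window, with a score below that of the main list. The strongest such peak had a median signal of 67.3, and ranged from 40.4 at zfh2, a zinc finger gene on chromosome 4, to 97.6 at vis and achi, which share 1 peak. These peaks were not always lower in signal than main-list peaks, whose lower quartile was 93.0. Some of these windows held few ranked peaks: 3 at ap, 5 at scro and 8 at zfh2. Taking any ranked peak in the window, 15 of the 28 genes had a score of 540 or more, which corresponds to an IDR of about 0.05, and none reached the 830 of the main list. In 12 of the 15 the strongest peak itself had such a score. Ptx1 had the highest, a score of 824 with a signal of 72.4 in the pooled list, 59.8 in replicate 1 and 24.5 in replicate 2. Next was so, a gene of eye formation, with a score of 737 and a signal of 76.7 (34.9 in replicate 1 and 44.0 in replicate 2). The POU genes nub (727) and acj6 (720) followed with peaks that were not their strongest, and then caup, with a score of 688 and a signal of 76.8 (51.1 in replicate 1 and 26.2 in replicate 2).

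exd, the partner of hth and of the Hox proteins, and toy, a Pax6 gene on chromosome 4, had no ranked peak at all in their windows. Only 2.1% of all protein-coding genes (293 genes) shared this, and 69 of those lay on chromosome 4, which has 80 genes. Around exd, on X, the nearest ranked peaks lay 11403 bp to the left of the gene and 26468 bp to the right. Around toy they lay 229730 bp and 15204 bp away. What lies behind these gaps was not tested.

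Length gives a gene more room for a peak, so the counts were also set against genes of like length. The median length was 15.1 kb for the 50 genes and 2.17 kb for all protein-coding genes. Peaks were present at 1 of 10 homeobox genes under 5 kb, against 47.5% of all genes of that length, and at 4 of 7 of 5 to 10 kb, against 55.8%. They were present at 8 of 16 of 10 to 20 kb, against 61.2%, at 6 of 13 of 20 to 40 kb, against 65.4%, and at 3 of 4 of 40 kb or more, against 70.7%. The shares of all genes, applied to the lengths of the 50, add up to 29.8 genes (59.6%), where 22 (44%) were measured. The one short gene with a peak was ems, and those without were ind, lbe, unpg, vvl, gsb, achi, vis, exd and repo.

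**Figure D4:**
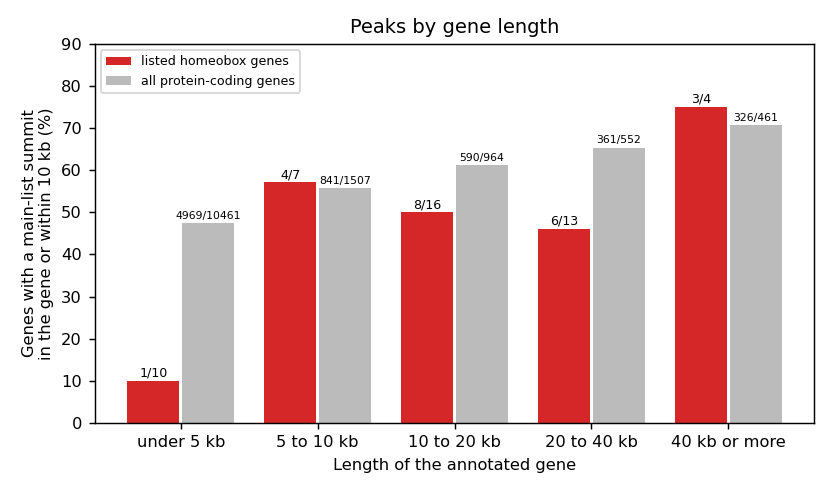
Share of genes with a main-list summit in the gene or within 10 kb (vertical axis, percent) by length of the annotated gene, for the listed homeobox genes (red) and all protein-coding genes (grey), with counts above the bars. The red bar is far below the grey one under 5 kb, where 1 of 10 homeobox genes had a peak.

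These counts depend on how a peak is given to a gene. With the gene body alone, 7 of the 50 (14%) held a summit, against 9.64% of all genes. With a peak given only to the gene with the nearest TSS, 13 of the 50 (26%) had one, against 14.4%. Under both rules the homeobox genes were above all genes, where within 10 kb they were below. The shares under both rules were not matched for length, and the median length was 15.1 kb for the 50 genes and 2.17 kb for all genes. The bodies of the 50 genes alone held 1.52 peaks per 100 kb. With 5 kb flanks the shares were alike, at 36% and 36.3%, and with 20 kb they were 64% and 69.0%. Gene starts were sparser around them: 7.41 per 100 kb of their windows, against 11.8 in the windows of all protein-coding genes. Peaks per 100 kb were 2.52 in the windows of the 50 genes, 2.72 in the windows of all protein-coding genes and 2.55 over the whole arms. The parts of gene length and gene density in these differences were not tested.

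Other homeobox genes, from lists of Hox genes and of 31 further genes, had peaks more often. Of the 8 Hox genes 7 (87.5%) had a peak, and their windows held 3.82 peaks per 100 kb. The Hox genes are long, with a median of 30.6 kb. Of all protein-coding genes, 65.4% of those of 20 to 40 kb and 70.7% of those of 40 kb or more had a peak. Among the 31 further genes, which include en, eve, ftz, bcd and tin, 22 (71.0%, 53.4 to 83.9) had one. They had 4.55 peaks per 100 kb and a median length of 4.21 kb. Gene starts per 100 kb were 12.6 in their windows, 5.23 in the Hox windows and 7.41 in those of the 50 genes. Promoter peaks stood at Abd-B among the Hox genes (1 of 8) and at NK7.1, PHDP, bcd and tin among the others (4 of 31, 12.9%). Windows of some of the 31 overlap, so their 51 pairs of gene and peak held 45 distinct peaks, while no peak was shared among the 8 Hox genes or among the 50. The differences were not tested.

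The peaks of the 50 genes lay farther from start sites than the other peaks. The summit was a median of 4354 bp from the nearest TSS of any gene, against 1001 bp for the 3370 main-list peaks outside these windows. Over 2 kb from any TSS were 31 of the 47 (66.0%), against 37.3% of the others. Only 7 (14.9%) lay at a promoter of any gene, against 39.4%, and 20 (42.6%) were intergenic, against 19.3%. Coding exons held 5 (10.6%), against 3.56%, and introns 13 (27.7%), against 35.3%. Promoter stretches made up 9.54% of the windows of the 50 genes and 13.4% of the arms. The part of this in the shares above was not tested. Relative to the homeobox genes, 3 peaks lay at their own promoters, 4 at the promoter of another gene, 3 in their coding exons, 11 in their introns (6 genes), 11 in upstream flanks and 15 in downstream flanks. The nearest TSS belonged to one of the 50 genes for 23 peaks and to another gene for 24.

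Signals of the 47 peaks spread over the whole list. The median was 106.2 (quartiles 89.6 and 201.1), against 125.1 (93.1 and 199.7) for the other main-list peaks. With all main-list peaks cut into 4 equal groups by signal, 12 of the 47 fell in the strongest group, 6 in the next, 12 in the one after and 17 in the weakest. The lower median did not hold in the replicates' own lists, where the ratio of the median of the homeobox gene peaks to that of all peaks was 1.05 in replicate 1 and 1.11 in replicate 2, against 0.851 in the main list.

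Support by single replicates was counted next. Of the 47 peaks 16 (34.0%, 95% Wilson interval 22.2 to 48.3) were in the thresholded lists of both replicates, against 47.0% of the other main-list peaks, a share within that interval. A further 8 were in the list of replicate 1 only, 10 in that of replicate 2 only and 13 in neither. The conservative pooled list held 34 of the 47 (72.3%), against 83.5% of the others. The 15 strongest peaks, with signals of 172.0 or more, were all in both lists, and the Poxn promoter peak was the one other. These 16 peaks belonged to 12 genes. Across the 43 peaks with a ranked peak in each replicate within 100 bp of the summit, replicate 1 and replicate 2 correlated with a Spearman rho of 0.658, and a Pearson r of log2 signals of 0.686. For the other peaks these were 0.736 and 0.819 over 3088 peaks. With the strongest overlapping ranked peak in place of the nearest summit, rho was 0.638 and r 0.808 over all 47, against 0.719 and 0.822 over 3319 others. These describe peaks that share both libraries, so no p is given. The replicates stood far apart at 2 peaks. At the eyg peak the signals were 4.90 in replicate 1 against 58.1 in replicate 2. A replicate 1 peak with a summit farther off overlapped it with 85.2. At the weakest hth peak they were 35.8 in replicate 1 against 6.5 in replicate 2, where an overlapping replicate 2 peak had 44.0.

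**Figure D5:**
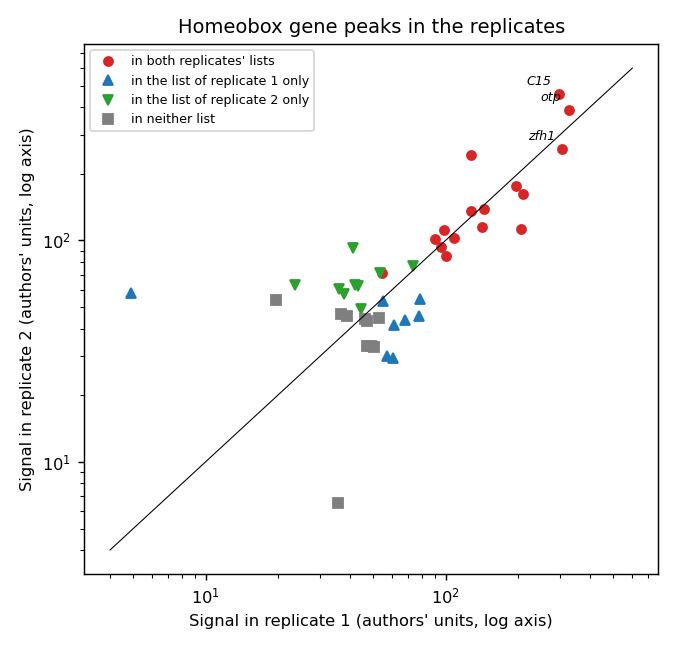
Signal in replicate 1 (horizontal) and replicate 2 (vertical), both on log axes in the authors' units, for the 43 homeobox gene peaks matched in both ranked lists, with markers for the replicate lists that hold each. The line marks equal values. C15, otp and zfh1 stand at the upper right, the point far to the left is the eyg peak and the lowest point is the weakest hth peak.

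Sequence around the summits was searched for 12 motifs on both strands, in the 101 bases centred on each summit. TAATTA, the core bound by many homeodomains, was in 7 of the 47 (14.9%, 95% Wilson interval 7.41 to 27.7), against 8.72% of the other main-list peaks. In flanks 300 bp away the shares were 11.7% and 5.91%, so the flanks of the homeobox gene peaks also held it more often. The 7 peaks lay at hth (2 of them), Dr, Lim1, Poxn, eyg and otp. TGATNNAT, a form of the site of Exd-type TALE proteins, was in 5 (10.6%), against 7.0%, with 9.57% and 5.74% in flanks. GAGAG, bound by GAGA factor, was in 2 (4.26%), against 10.7%, and below the 13.8% and 15% of the flanks. With 100 bp on each side, GAGAG was in 27.7% of the 47 and 24.5% of the others. ATGCAAAT, the POU octamer, was in 2 (4.26%), against 1.66%, and CACACACA in 2, against 1.63%. In flanks the shares were 4.26% and 1.54% for ATGCAAAT, so those of the homeobox gene peaks equalled their summits. For CACACACA they were 0% and 3.59%. CAGCTG and TAATCC were in 1 each (2.13%), against 4.30% and 3.44%. Neither CAGGTA, bound by Zelda, nor TATCGATA was in any of the 47, where 1.93% and 0.920% of the other peaks held them. The same went for the motif GGTCACACT (0.326% of the others), for the E-box CACGTG (1.07%) and for the site AACCGGTT (0.178%). A count of 0 among 47 allows a share of up to 7.56% by the upper Wilson bound.

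The 8-mers most in excess at the summits of the other peaks were made of A and T alone, led by ATTTAAAA, which was in 5.40% of those summits and 2.33% of their flanks. Any of the 10 leading 8-mers was in 8 of the 47 homeobox gene peaks (17.0%), against 25.4% of the others. The median GC content of the 101 bases was 37.6% in the homeobox gene peaks and 34.7% in the others. None of these differences was tested, and the intervals cover the sampling of peaks only.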

How the data were processed

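Chromatin immunoprecipitation with sequencing was done with an antibody against GFP on 2 biological replicates of whole embryos, and the peak lists that the authors deposited on dm6 were taken as they were. Their descriptions say that each list came from aligned reads of a sample and of a control. Neither aligner nor peak caller is named in the sources used here. The authors' deposited signal is the strength of a peak over the control, and their deposited score is a whole number up to 1000 derived from the IDR. A score of 830 corresponds to an IDR of about 0.01 and was the lowest in the thresholded lists. The pooled ranked lists hold 16 further columns with values per replicate, left unused because no label assigns them. Depth is unknown, and intervals cover the sampling of genes or peaks only.

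Genes and TSSs came from Ensembl release 115, without TSSs of transposable elements and pseudogenes, and sequences from the RefSeq copy of the same assembly. Coordinates are 1-based. A peak counted as present in a replicate when it overlapped a peak of that replicate's thresholded list by at least 1 bp. Replicate signals came from the ranked peak with its summit within 100 bp. The members, the comparison lists and the motifs were chosen with earlier results of these data known, and no test was run on them. All members were named, with full values for promoter peaks and the 10 strongest peaks. Values for each peak were also planned for the genes with the 5 highest numbers of peaks, ties kept. Their weaker peaks are given by signal or by range only. The ey, exd and toy values and the other weaker peaks were picked out after they were seen. Sequences of 30 bases were planned and 101 are printed. Counting was tested on simulated data with a seed of 1. Alternatives covered the peak list, the threshold, the window, the promoter distance and the assignment of peaks. Work was done in Python 3.11.15 with pandas 2.3.3, numpy 2.4.6, matplotlib 3.10.9, scipy 1.17.1 and Biopython 1.88.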

Additional observations from a re-analysis of the deposited data

How the results depend on the processing

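Number of genes with a peak, 22 in the main list, was 19 with the conservative list (38%, against 48.2% of all genes), 16 without replicate 1 (32%, against 41.0%), 17 without replicate 2 (34%, against 36.3%) and 12 (24%, against 30.9% of all genes) with peaks in both replicates' lists. It was 8 (16%, against 13.5%) with the strongest 500 peaks and 37 (74%, against 69.6%) with ranked peaks of a score of 540 or more. It was 7 with the gene alone, 13 by nearest TSS, 18 with 5 kb (36%, against 36.3%) and 32 with 20 kb flanks (64%, against 69.0%). Promoter peaks, 3 in the main list, were at 5 genes with a score of 540 or more (15.1% of all genes) and at 1 with 200 bp (7.86%). Leaving out Poxm and Poxn was a choice made after the data were seen. It left a promoter peak at 1 of 48 genes (2.08%, against 11.3% of all genes). A peak in the window was left at 20 (41.7%, against 50.8% of all genes). The 47 distinct peaks became 28 with either replicate left out, 16 with both lists required, 8 among the strongest 500, 86 at a score of 540 or more, 14 in the gene alone, 75 with 20 kb and 23 by nearest TSS. Peaks per 100 kb were 1.5 without either replicate, 0.859 with both lists, 0.430 in the strongest 500, 4.62 at a score of 540 or more and 1.52 in the genes alone. The ratio of medians, 0.851, was 1.05 to 1.11 in single replicates, 1.34 with both lists, 0.901 in the genes alone, 0.936 with 5 kb and 0.932 with 20 kb. The share of peaks at the gene's own promoter, 6.38%, was 18.8% with both lists, 25% in the strongest 500, 0% in the gene alone and 2.13% with 200 bp. The 0% was fixed by the setting, since the 3 promoter summits lay upstream of their genes. The share in both replicates' lists stayed between 25.5% and 41.3%. Matching replicates by overlap was added after the data were seen. Leaving out the listed genes on chromosome 4 gave 21 genes (44.7%, against 50.8% of all genes). Leaving out peaks that overlap a stronger one gave 22 (44%, against 50.8%), and both settings were also added later. The signal scale, the lack of read counts and the single group limit what can be compared.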

Other observations

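Peaks also lay between listed paralogs, beyond the 10 kb windows or within them. Between caup and mirr, 71840 bp apart on 3L, 4 main-list peaks had signals of 101.2, 124.6, 116.4 and 105.1, from 46427 to 63084 bp past caup, and none of them was in both replicates' lists. The nearest TSS was that of the non-coding RNA gene CR44552 for 2 of them and of mirr for the other two. Between the POU genes nub and pdm2, 29029 bp apart on 2L, 1 peak had a signal of 32.9 and was in neither replicate's list. Between lbe and C15 on 3R, 1 peak had a signal of 146.1 and was in both lists, 12070 bp before C15 and nearest to the TSS of Fancm. No peak lay between ara and caup, vis and achi, gsb-n and gsb, lbl and lbe, or Rx and hbn.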
